A study of Mus musculus with 4 samples.

Results

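A set of 5 genes of the acute phase response that fat cells can express, namely Hp, Saa3, Lcn2, Serpina3n and Steap4, was followed in 4 stable lines of 3T3-L1 cells. They were taken by name, as the table entries whose RefSeq identifier maps to one of these symbols, and each of the 5 had 1 entry among the 13085 genes measured. The set was chosen with earlier results of these data known, so the shares of all genes given below are background and not a test. 3T3-L1 is a mouse preadipocyte line that turns into fat cells under adipogenic hormones. FLAG cells carried the empty FLAG vector, FLAG-CACUL1 cells a FLAG-tagged CACUL1, sh-Luc cells a short hairpin against luciferase and sh-CACUL1 cells a short hairpin against CACUL1. The FLAG-vector lines were selected with the drug G418 and the sh-vector lines with Hygromycin B, and resistant colonies were used, so the vector, the drug and the outgrowth of colonies differed between the pairs of lines. All lines received insulin at 5 µg/ml, dexamethasone at 1 µg/ml, IBMX at 0.5 mM and rosiglitazone at 5 µM to start adipogenesis, then insulin alone, and RNA was taken on day 8. Each line was sequenced as 1 sample. No difference below has a replicate check, no test was possible, and a gene is called changed at 2-fold or more on the log2(FPKM + 1) scale. FPKM counts fragments relative to transcript length and to the depth of the sample, so levels of different genes can be set side by side.

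The acute phase response is the change in secreted proteins that follows infection or injury. The liver makes most of these proteins, and adipose tissue makes some of them too. Interleukin-6 acting through STAT3, interleukin-1 and TNF acting through NF-kB, C/EBP factors and glucocorticoids are its known inducers. Hp encodes haptoglobin, which binds free haemoglobin. Saa3 encodes a serum amyloid A protein, an apolipoprotein of inflamed tissue. Lcn2 encodes lipocalin 2, which binds bacterial siderophores and so withholds iron. Serpina3n encodes a secreted inhibitor of serine proteases, and Steap4 a membrane metalloreductase that responds to inflammatory and nutritional signals in fat cells.

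The promoter windows of 4 of the 5 genes are shown because the known inducers of the members act on such sequences. Whether these sequences bear on any difference between the lines was not tested. Each window runs from 250 bases before to 50 bases after the start site in RefSeq on GRCm38.p6 and is written 5′ to 3′ on the strand of the gene. Capitals mark matches to the C/EBP motif TTNNGNAA and the STAT motif TTCNNNGAA on either strand. The windows are chr7:46715627-46715926 (minus strand) for Saa3, chr2:32387690-32387989 (minus strand) for Lcn2, chr12:104406458-104406757 (plus strand) for Serpina3n and chr5:7960222-7960521 (plus strand) for Steap4. The window of Hp was not analysed here.
Saa3: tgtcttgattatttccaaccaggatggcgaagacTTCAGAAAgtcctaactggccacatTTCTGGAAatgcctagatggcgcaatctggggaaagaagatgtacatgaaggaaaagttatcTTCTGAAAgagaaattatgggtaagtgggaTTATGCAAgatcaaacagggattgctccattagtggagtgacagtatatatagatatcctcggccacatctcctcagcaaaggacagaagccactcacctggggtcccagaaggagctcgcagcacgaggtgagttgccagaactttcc
Lcn2: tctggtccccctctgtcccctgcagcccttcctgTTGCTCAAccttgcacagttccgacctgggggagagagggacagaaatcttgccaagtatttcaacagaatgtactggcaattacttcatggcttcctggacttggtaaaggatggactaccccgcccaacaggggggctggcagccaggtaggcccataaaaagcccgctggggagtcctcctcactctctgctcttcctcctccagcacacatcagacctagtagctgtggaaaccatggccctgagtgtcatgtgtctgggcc
Serpina3n: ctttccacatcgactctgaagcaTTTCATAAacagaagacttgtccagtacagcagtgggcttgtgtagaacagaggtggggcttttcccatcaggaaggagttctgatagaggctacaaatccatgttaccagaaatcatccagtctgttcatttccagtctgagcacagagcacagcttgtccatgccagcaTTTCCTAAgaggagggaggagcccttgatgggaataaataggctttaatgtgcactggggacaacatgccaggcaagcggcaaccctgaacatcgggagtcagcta
Steap4: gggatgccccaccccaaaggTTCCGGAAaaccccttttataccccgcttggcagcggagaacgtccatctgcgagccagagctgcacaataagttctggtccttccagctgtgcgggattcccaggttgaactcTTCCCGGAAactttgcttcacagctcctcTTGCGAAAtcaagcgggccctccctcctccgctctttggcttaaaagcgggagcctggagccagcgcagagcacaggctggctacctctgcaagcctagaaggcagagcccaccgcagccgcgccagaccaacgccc

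The C/EBP motif had 4 matches in the Saa3 window, which begin at positions -216, -191, -129 and -99 from the start site. It had 1 match for Lcn2, 2 for Serpina3n and 2 for Steap4. Of all 32851 promoter windows in the same source, 40.7% held at least 1 such match. The STAT motif was found for Steap4 alone among these 4 windows, from position -116 to -108, and 8.30% of all windows held it. The NF-kB motif GGGNNNNNCC, not in capitals above, had 1 match for Lcn2, 4 for Serpina3n, 4 for Steap4 and none for Saa3, against 50.8% of all windows with a match. Neighbouring NF-kB matches of Serpina3n overlap each other, and 1 of those of Steap4 overlaps a C/EBP match. A match describes the letters only, and no factor binding was measured.

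The summed FPKM of all genes ran from 372148 in sh-CACUL1 to 473584 in FLAG-CACUL1. The steps between low values gave estimated depths of 14500000 fragments in FLAG and 14200000 in FLAG-CACUL1, and 24200000 in sh-Luc beside 15100000 in sh-CACUL1. Intervals given below are 95% Poisson intervals from fragments estimated in this way and cover counting error only. Cacul1 itself had 9.61 FPKM in FLAG and 11.8 in FLAG-CACUL1, and 10.2 in sh-Luc beside 5.39 in sh-CACUL1. Whether fragments of the FLAG-CACUL1 construct were counted in that entry was not tested. The labels call the cells preadipocytes, and Fabp4, an adipocyte fatty acid binding protein, was present at 4991, 320, 1020 and 12543 FPKM in the same order of lines.

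Hp, the haptoglobin gene (NM_017370, chr8:109575128-109579172, minus strand, GRCm38), was measured at 1568 FPKM in FLAG and 230.2 in FLAG-CACUL1, and 10.9 in sh-Luc beside 26.7 in sh-CACUL1. Both FLAG-vector lines were far above both sh-vector lines, and the counting intervals of the 4 lines did not overlap. It ranked 32nd by FPKM in FLAG and 5614th in sh-Luc. The log2 fold change of Hp was -2.76 in FLAG-CACUL1 against FLAG (counting interval -2.82 to -2.70) and 1.22 in sh-CACUL1 against sh-Luc (0.96 to 1.48). Hp was thus the member that was called lower with FLAG-CACUL1 and higher with sh-CACUL1. The highest level was 144 times the lowest.

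Saa3 (NM_011315, chr7:46711998-46715700, minus strand), the serum amyloid A gene, had the widest range of the members. It was measured at 1135 FPKM in FLAG and 6829 in FLAG-CACUL1, and 1.32 in sh-Luc beside 3.33 in sh-CACUL1. In FLAG-CACUL1 only 1 gene of the table had a higher FPKM, whereas in sh-Luc Saa3 ranked 10408th. The levels in the sh-vector lines rest on about 18 fragments in sh-Luc and 28 in sh-CACUL1, against 53989 in FLAG-CACUL1. Their counting intervals, 0.796 to 2.12 FPKM in sh-Luc and 2.22 to 4.83 in sh-CACUL1, came close to each other without overlap. Against FLAG the log2 fold change of Saa3 in FLAG-CACUL1 was 2.59 (2.55 to 2.63). In sh-CACUL1 against sh-Luc the log2 fold change was 0.90 (0.05 to 1.70), which did not reach 2-fold on the FPKM + 1 scale, although the ratio of the FPKM values was 2.53. The Saa3 transcript shares 5.33% of its stretches of 31 bases with Saa1 and 2.10% with Saa2, so some fragments could belong to these relatives.

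Lcn2 (NM_008491, chr2:32384633-32388252, minus strand), the lipocalin 2 gene, had 1581 FPKM in FLAG and 1424 in FLAG-CACUL1, and 5.71 in sh-Luc beside 42.3 in sh-CACUL1. The FLAG-vector lines were nearly level, at ranks 31 and 34 of all genes, and the sh-vector lines were both far below them and apart from each other. The log2 fold change was -0.15 in FLAG-CACUL1 against FLAG (-0.19 to -0.11), a difference under the 2-fold threshold. In sh-CACUL1 against sh-Luc it was 2.69 (2.36 to 3.03), the largest of the 5 members, and 52 of the 13085 genes had a larger one. The level in FLAG was 277 times that in sh-Luc.

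Serpina3n (NM_009252, chr12:104406729-104414329, plus strand), the protease inhibitor gene, was expressed at 15.3 FPKM in FLAG and 51.2 in FLAG-CACUL1, and 2.87 in sh-Luc beside 14.5 in sh-CACUL1. FLAG-CACUL1 was highest and sh-Luc lowest, whereas FLAG and sh-CACUL1 had overlapping counting intervals, 13.9 to 16.7 and 13.2 to 15.9 FPKM. The log2 fold change of Serpina3n was 1.68 in FLAG-CACUL1 against FLAG (1.48 to 1.88) and 2.00 in sh-CACUL1 against sh-Luc (1.70 to 2.30). Serpina3n was therefore called higher in both comparisons. The transcript shares 5.90% of its stretches of 31 bases with Serpina3g and as many with Serpina3f, so some fragments could belong to these relatives.

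Steap4 (NM_054098, chr5:7960457-7982213, plus strand), the metalloreductase gene, had the lowest FPKM of the members in both FLAG-vector lines. It was measured at 7.20 FPKM in FLAG and 17.9 in FLAG-CACUL1, and 1.33 in sh-Luc beside 4.78 in sh-CACUL1. The order of the lines was that of Saa3 and Serpina3n, with FLAG-CACUL1 highest and sh-Luc lowest. The log2 fold change was 1.21 in FLAG-CACUL1 against FLAG (0.97 to 1.44) and 1.31 in sh-CACUL1 against sh-Luc (0.99 to 1.63), so that both counting intervals reached below 2-fold. The level in FLAG-CACUL1 was 13.5 times that in sh-Luc, the smallest range of the 5 genes.

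**Figure D1:**
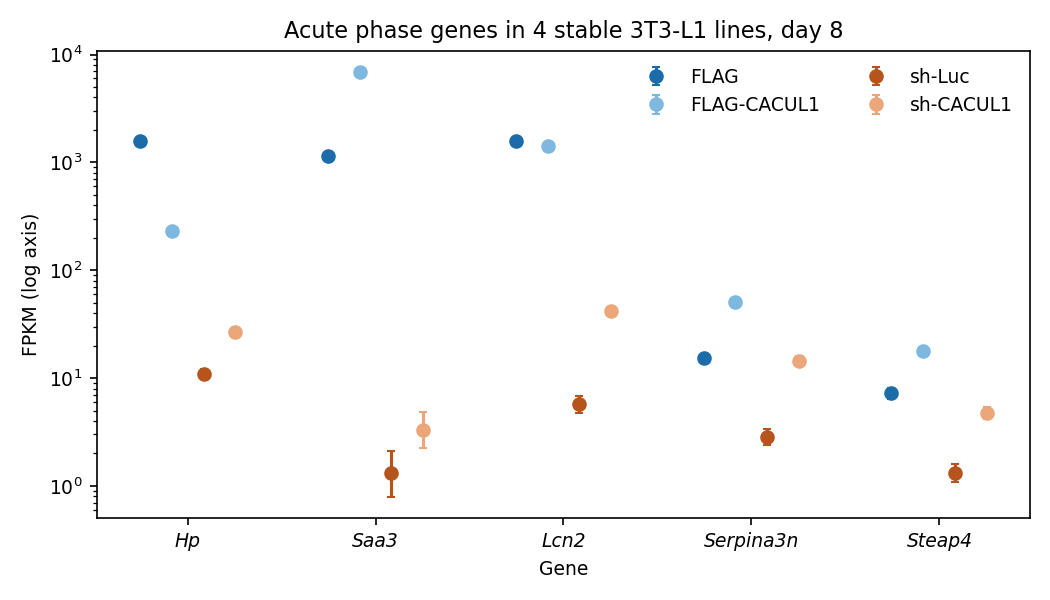
Level of each acute phase gene in FPKM (vertical log axis) in the 4 lines, 1 sample each, with 95% counting intervals as bars where they exceed the point. Saa3 reached 6829 FPKM in FLAG-CACUL1 and 1.32 FPKM in sh-Luc, and all 5 genes were lowest in sh-Luc.

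The first question was how the members stood when CACUL1 was overexpressed. In FLAG-CACUL1 against FLAG, 3 of the 5 members were at least 2-fold higher (Saa3, Serpina3n and Steap4), where 7.51% of all 13085 genes were. At least 2-fold lower was 1 member, Hp, where 7.22% of all genes were, and Lcn2 was under the threshold. The median log2 fold change of the members was 1.21, beside 0.09 over all genes. The summed FPKM of the 5 genes was 4306 in FLAG and 8552 in FLAG-CACUL1, and Saa3 made up most of the latter.

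The second question was how they stood when CACUL1 was depleted. In sh-CACUL1 against sh-Luc, 4 of the 5 members were at least 2-fold higher (Hp, Lcn2, Serpina3n and Steap4), where 4.94% of all genes were. No member was at least 2-fold lower, where 16.4% of all genes were. The median log2 fold change of the members was 1.31, beside -0.30 over all genes. Relative to that median the differences were 1.52 for Hp, 1.21 for Saa3, 2.99 for Lcn2, 2.31 for Serpina3n and 1.61 for Steap4 on the log2 scale. Saa3 passed 2-fold as well once the FPKM were rescaled by quantile normalization (1.26) or median-of-ratios scaling (1.22).

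Serpina3n and Steap4 were at least 2-fold higher in both comparisons, 2 of the 5 members, where 0.283% of all genes were. Hp alone of the 5 was at least 2-fold lower in FLAG-CACUL1 and higher in sh-CACUL1, where 1.69% of all genes were. The members did not share 1 direction in FLAG-CACUL1 cells. They did share the sign in sh-CACUL1 cells, where the FPKM of each was above that in sh-Luc.

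**Figure D2:**
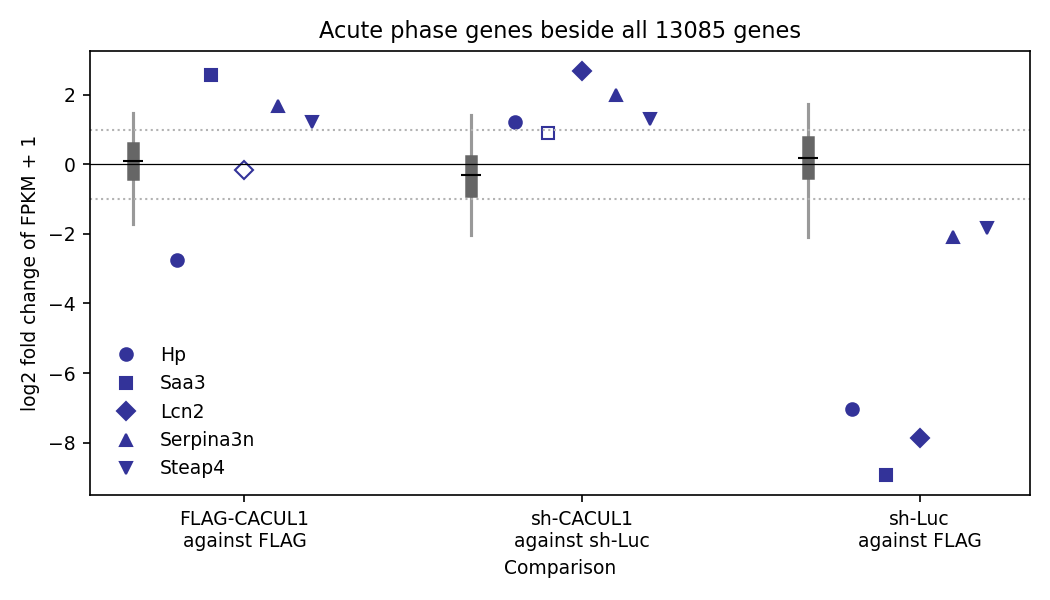
Log2 fold change of FPKM + 1 of each member (symbols, open where under 2-fold) in 3 comparisons, beside the median of all genes (black tick), the middle 50% (thick grey bar) and the middle 95% (thin grey line); dotted lines mark 2-fold. In sh-Luc against FLAG all 5 members lie below the thick bar, down to -8.94 for Saa3.

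The controls, which carry no CACUL1 construct, differed more in every member than either CACUL1 line did from its own control. The margin was wide for Hp, Saa3 and Lcn2 and narrow for Serpina3n and Steap4. For Serpina3n it did not hold after quantile normalization, at -2.23 in sh-Luc against FLAG beside 2.43 in sh-CACUL1 against sh-Luc. In sh-Luc against FLAG all 5 members were at least 2-fold lower, where 8.58% of all genes were, and none was at least 2-fold higher, where 12.4% were. The log2 fold change was -7.04 for Hp, -8.94 for Saa3, -7.88 for Lcn2, -2.07 for Serpina3n and -1.81 for Steap4, beside a median of 0.18 over all genes. No gene of the table had a lower value than Saa3, 2 had a lower one than Lcn2 and 4 a lower one than Hp. The vector, the selection drug and the origin of the colonies cannot be told apart in this comparison.

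In both CACUL1 lines too the members kept to this order of vectors. All 5 had both FLAG-vector lines above both sh-vector lines, where 17.3% of all genes did. For Hp, Saa3 and Lcn2 the lower FLAG-vector line was at least 2-fold above the higher sh-vector line, 3 of the 5 members, where 1.85% of all genes met this rule. The ratio of these neighbouring lines in FPKM was 8.62 for Hp, 341 for Saa3 and 33.7 for Lcn2. For Steap4 it was 1.51, and for Serpina3n it was 1.05, with overlapping counting intervals. This order was looked at after the values were seen.

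The choice of control set the direction of Hp and of the depletion results. FLAG-CACUL1 against sh-Luc gave Hp a log2 fold change of 4.28, the opposite sign to that against FLAG, and Lcn2 one of 7.73. In sh-CACUL1 against FLAG, Hp stood at -5.82, Lcn2 at -5.19 and Steap4 at -0.51, all opposite in sign to the comparison with sh-Luc. Serpina3n was level there, at -0.071 (counting interval -0.32 to 0.18). Saa3, above sh-Luc by less than 2-fold, stood at -8.03 against FLAG, also opposite in sign. In FLAG-CACUL1 against sh-Luc, Saa3 kept its positive sign, at 11.53, and no gene of the table had a higher value there.

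The members fell into different profiles across the lines when each log2(FPKM + 1) profile was centred on its own mean. Serpina3n and Steap4 were most alike, with a root-mean-square difference of 0.31, followed by Hp and Lcn2 at 1.27 and Saa3 and Lcn2 at 2.02. The remaining pairs differed by 2.16 to 4.04. Among 9558 other genes with at least 1 FPKM in all 4 lines, the profile nearest to Hp was that of Dgat2 (0.59), which encodes an enzyme of triglyceride synthesis, and the next were Igfbp4 (0.61) and Ankrd37 (0.75). Dgat2 had 260.5 FPKM in FLAG and 25.1 in FLAG-CACUL1, and 2.86 in sh-Luc beside 6.24 in sh-CACUL1. Sumo3, which encodes a small ubiquitin-like modifier, was nearest to both Serpina3n (0.16) and Steap4 (0.26).

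Saa3 was farther from these genes than the other members were from their nearest, and its smallest difference outside the members was 2.59 with Cxcl1, a neutrophil-attracting chemokine gene, before Gm5424 (2.62) and Rhox5 (2.65). Cxcl1 had 175.6 FPKM in FLAG and 316.7 in FLAG-CACUL1, and 12.4 in sh-Luc beside 1.71 in sh-CACUL1. For Lcn2 the nearest outside the members were Rhox5 (1.29), Gm5424 (1.29) and Igfbp4 (1.31). The next places were Ly6c1 (0.47) and Rtl8c (0.49) for Serpina3n, and P2rx3 (0.31) and Pcdhgb4 (0.36) for Steap4. These are descriptions over 4 samples.

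Other acute phase proteins were taken as a list of 32 genes, of which 19 had an entry in the table and 4 of those stayed under 1 FPKM in all lines. In FLAG-CACUL1 against FLAG 2 of the 19 were at least 2-fold higher and 8 lower, with a median log2 fold change of -0.64, opposite in sign to the median of the members. In sh-CACUL1 against sh-Luc 6 were higher and 2 lower, with a median of 0.21. In sh-Luc against FLAG 2 were higher and 10 lower, with a median of -1.02. Both FLAG-vector lines lay above both sh-vector lines for 9 of the 19 and below them for 3.

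Lbp, the gene of the lipopolysaccharide binding protein, came closest in this list to the calls of Serpina3n and Steap4. It had 27.2 FPKM in FLAG and 63.7 in FLAG-CACUL1, and 1.20 in sh-Luc beside 5.67 in sh-CACUL1, with log2 fold changes of 1.20 and 1.60 in the own-vector comparisons, and it was singled out after its values were seen. Orm3, an orosomucoid gene, was likewise called higher in both, at 1.01 and 1.61. Lrg1 (-1.50 and 1.96), Agt (-1.69 and 1.10) and Orm1 (-2.19 and 3.03), which encode a leucine-rich glycoprotein, angiotensinogen and orosomucoid 1, had the directions of Hp. Orm2 stood at 0.91 and 2.66.

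Mt1 and Mt2, which encode metal-binding metallothioneins, had log2 fold changes of -2.26 and -4.63 in FLAG-CACUL1. Mt2 had 4503 FPKM in FLAG and 180.3 in FLAG-CACUL1, and 42.1 in sh-Luc beside 0.984 in sh-CACUL1. Its log2 fold change in sh-CACUL1 against sh-Luc, -4.44, was opposite in sign to that of all 5 members. Cp, the ceruloplasmin gene, was also lower in sh-CACUL1 (-2.53).

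**Figure D3:**
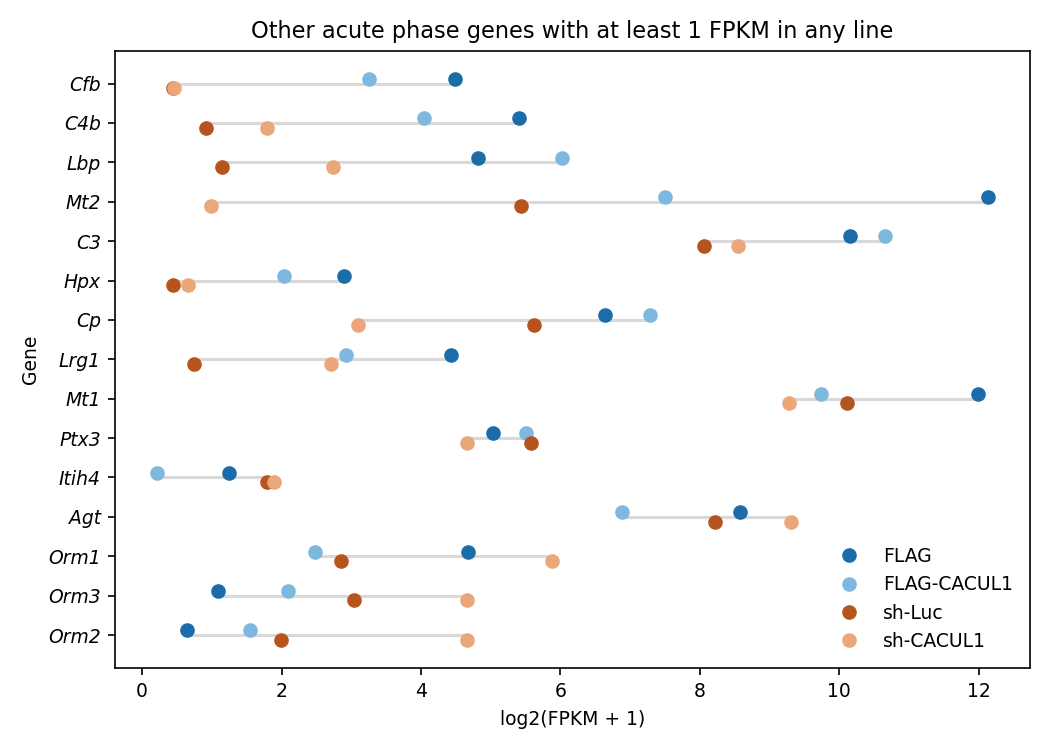
Levels of the other acute phase genes with at least 1 FPKM in any line, on a log2(FPKM + 1) axis with 1 point per line and sample; genes are ordered by the gap between the lower FLAG-vector and the higher sh-vector line. Cfb, C4b and Lbp at the top had both FLAG-vector lines above both sh-vector lines, and Orm1, Orm2 and Orm3 at the bottom were highest in sh-CACUL1.

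The inducers of the members were looked at as 3 lists, to be read beside the shares of all genes given above, 7.51% higher and 7.22% lower in FLAG-CACUL1 and 4.94% higher and 16.4% lower in sh-CACUL1, with all-gene medians of 0.09 and -0.30. In sh-Luc against FLAG, 12.4% of all genes were higher and 8.58% lower (median 0.18). There the interleukin-6 list had 2 genes higher and 4 lower of 17 (median -0.10). The interleukin-1 list had 3 and 5 of 23 (-0.30), and the C/EBP and glucocorticoid list 3 and 2 of 11 (-0.08). Of 17 measured genes of the interleukin-6 and STAT3 pathway, 2 were at least 2-fold higher and 2 lower in FLAG-CACUL1 (median log2 fold change -0.06), and 5 were lower and none higher in sh-CACUL1 (median -0.81). The cytokine gene Il6 had 1.10 FPKM in FLAG and 4.58 in FLAG-CACUL1, and 0.347 in sh-Luc beside 0.762 in sh-CACUL1, which is the order of the lines for Saa3, Serpina3n and Steap4, at low levels. In sh-CACUL1, where the members were above sh-Luc, the receptor genes Il6st (-2.40), Il6ra (-1.95) and Il11ra1 (-1.25), the kinase gene Jak1 (-1.49) and the STAT inhibitor gene Pias3 (-1.45) were lower. Stat3 itself stood between 31.7 and 45.2 FPKM in all lines, and Socs3, a STAT3 target and feedback inhibitor, at 11.5 in FLAG and 11.8 in FLAG-CACUL1, and 6.14 in sh-Luc beside 2.62 in sh-CACUL1. Lif fell from 3.48 FPKM in FLAG to 0.664 in FLAG-CACUL1, and Jak2 had a log2 fold change of -1.01 there.

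Of 23 measured genes of interleukin-1, TNF and Toll-like receptor signalling, 5 were at least 2-fold higher and 2 lower in FLAG-CACUL1 (median 0.30), and 7 were lower and none higher in sh-CACUL1 (median -0.70). Tlr2, a receptor for bacterial lipoproteins, had 24.4 FPKM in FLAG and 81.2 in FLAG-CACUL1, and 11.9 in sh-Luc beside 1.30 in sh-CACUL1. It was higher in FLAG-CACUL1 as were Saa3, Serpina3n and Steap4, but lower in sh-CACUL1 (-2.48), where no member was. The same pair of calls was found for Il1rap (1.13 and -2.55) and Il1rl1 (1.51 and -2.18), which encode a subunit and a relative of the interleukin-1 receptor. Nfkb1 (-1.96), Nfkb2 (-1.31) and Il17ra (-1.26) were called lower in sh-CACUL1 only, and Il17rc (-1.88) in FLAG-CACUL1 only. The NF-kB inhibitor gene Nfkbia, itself a target of NF-kB, had 78.3, 52.5, 51.1 and 47.4 FPKM in the order used above, and Nfkbiz, a cofactor known to induce Lcn2, had 25.2, 18.2, 10.7 and 12.5.

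Of 11 C/EBP and glucocorticoid genes, 1 was at least 2-fold higher and 3 lower in FLAG-CACUL1 (median -0.01), and 2 were higher and none lower in sh-CACUL1 (median -0.49). Cebpa, a factor of late adipogenesis, had 9.16 FPKM in FLAG and 1.58 in FLAG-CACUL1, and 0.421 in sh-Luc beside 2.97 in sh-CACUL1, the same order of the FLAG-vector lines and of the sh-vector lines as for Hp. Cebpb had 274, 201.6, 113.2 and 141.9 FPKM in the same order, with both FLAG-vector lines highest, as for the members. This order held for 2 of the 11 genes, where 17.3% of all genes had it. The opposite order held for 4 of the 11 and was not counted over all genes. Sgk1, Tsc22d3 and Fkbp5, targets of the glucocorticoid receptor, were far higher in the sh-vector lines, Sgk1 at 6.06, 12.8, 102.6 and 69.8 FPKM. Other glucocorticoid genes of the list differed from them. Dusp1 was higher there by less, at 13.8, 6.07, 26.7 and 15.8 FPKM. Per1 (23.4, 4.94, 22.1 and 13.8) and Klf9 (17.1, 9.05, 15.9 and 11.0) were highest in FLAG. Cebpd was higher in FLAG-CACUL1 (1.02) and Cebpg in sh-CACUL1 (1.31), and the glucocorticoid receptor targets Per1 (-2.04) and Dusp1 (-1.06) were lower in FLAG-CACUL1. The receptor gene Nr3c1 was measured at 27.4, 36.0, 15.3 and 12.5 FPKM.

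The paralogs of the members had unequal values. Serpina3g had 6.08 FPKM in FLAG and 54.0 in FLAG-CACUL1, and 0.183 in sh-Luc beside 0.814 in sh-CACUL1, and Serpina3h had 7.01, 57.0, 0.127 and 0.203. Both were near Serpina3n in FLAG-CACUL1, which had 51.2, but under 1 FPKM in sh-CACUL1, where Serpina3n had 14.5. Serpina3c was higher in FLAG-CACUL1 (2.33), and Serpina3m in both comparisons (1.07 and 1.14), as Serpina3n was. The relatives of Steap4 did not share its call in sh-CACUL1, where Steap1 (-1.17), Steap2 (-1.53) and Steap3 (-1.48) were lower. In all, 4 of 9 measured paralogs were higher and none lower in FLAG-CACUL1 (median 0.99), and 1 was higher and 3 lower in sh-CACUL1 (median 0.09).

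Markers of adipocytes had the calls of Hp in both own-vector comparisons, which no other member had. All 13 measured adipocyte markers passed 2-fold, downward in FLAG-CACUL1 (median -3.96) and upward in sh-CACUL1 (median 2.62), with a summed FPKM of 8752 in FLAG and 940 in FLAG-CACUL1, and 1839 in sh-Luc beside 18507 in sh-CACUL1. Fabp4 alone gave 4991, 320, 1020 and 12543 of these sums. The members' summed FPKM in the same lines was 4306, 8552, 22.1 and 91.6. In sh-Luc against FLAG, 11 of the 13 markers were at least 2-fold lower and none higher, with a median of -2.28, the direction of all 5 members there. Adipoq, the adiponectin gene, had 837, 23.0, 171 and 1252 FPKM, and Pparg 70.1, 12.3, 14.8 and 61.8. In these bulk samples fewer expressing cells and less RNA per cell cannot be told apart.

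Of 10 measured preadipocyte markers 6 were higher and 1 lower in FLAG-CACUL1 (median 1.498), and 2 were higher and 6 lower in sh-CACUL1 (median -1.66). Their summed FPKM was 2804 in FLAG and 3896 in FLAG-CACUL1, and 1398 in sh-Luc beside 281 in sh-CACUL1, with FLAG-CACUL1 highest as for Saa3, Serpina3n and Steap4. Of 10 macrophage markers 5 had an entry in the table, without Adgre1, Ptprc, Itgam, Tyrobp and Fcer1g, and their sum was 40.2 FPKM in FLAG and 110.5 in FLAG-CACUL1, and 9.14 in sh-Luc beside 6.42 in sh-CACUL1. That sum was mostly Lyz2 (8.12, 66.5, 5.03 and 1.72 FPKM), Cd14 (15.0, 42.2, 3.02 and 3.50) and Cd68 (16.2, 1.44, 0.962 and 1.18), whereas Csf1r and Mrc1 stayed under 1 FPKM. Of these 5, 2 were at least 2-fold higher and 1 lower in FLAG-CACUL1 (median -0.20), and 1 was lower in sh-CACUL1 (median 0.0066). Of 8 hepatocyte markers 1, Cyp2e1, had an entry, at 1.32 FPKM or less. The part of these markers in the members' levels was not tested.

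The order with both FLAG-vector lines above both sh-vector lines, which all 5 members and 17.3% of all genes had, was found for each of the 5 measured macrophage markers, for 4 of 10 preadipocyte markers and for none of the 13 adipocyte markers. It was also found for 6 of 9 paralogs, 7 of 17 genes of the interleukin-6 list and 11 of 23 of the interleukin-1 list. Of these 6 paralogs, 2 stayed under 1 FPKM in all lines, and 1 of those is also in the list of other acute phase proteins. Serpina3c had a narrow gap, with 1.84 FPKM in FLAG beside 1.72 in sh-CACUL1. Of 10 reference genes often taken as stable, 4 had it as well. Among the macrophage markers, Csf1r and Mrc1 stayed under 1 FPKM in all lines. Cd68 had 1.44 FPKM in FLAG-CACUL1 beside 1.18 in sh-CACUL1, a narrow gap.

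**Figure D4:**
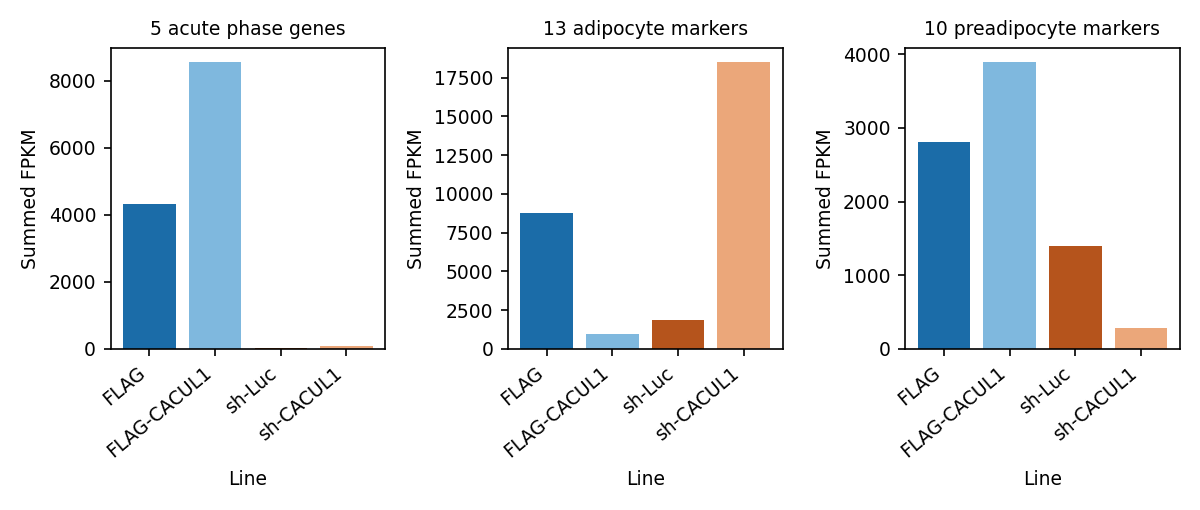
Summed FPKM (vertical axes from 0, scaled separately) of the 5 acute phase genes, 13 adipocyte markers and 10 preadipocyte markers in each line, 1 sample each. The acute phase sum was 4306 and 8552 in the FLAG-vector lines and 22.1 and 91.6 in the sh-vector lines, while the adipocyte sum was highest, 18507, in sh-CACUL1. Fabp4 alone made up 12543 of that adipocyte sum.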

How the data were processed

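mRNA-seq was made from total RNA of 4 stable 3T3-L1 lines, 1 sample each, by a company. The authors deposited FPKM values for 13110 RefSeq entries per sample. The submitters' processing notes name the build mm10, and neither the aligner nor the FPKM program nor a filter is named there: all 3 are not given in the sources used here. The authors' list of changed genes was not used.

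Entries were joined to symbols through GENCODE M21 on GRCm38 and, where none matched, through a RefSeq gene table. No symbol was found for 47 entries, 8 matched several symbols, and 50 that shared a symbol were summed, which left 13085 genes. All entries are above 0, so a gene without fragments in a sample may show as a tiny value or as no entry. Fold changes were computed on log2(FPKM + 1), without a filter, which understates the change of low genes. Each CACUL1 line was set against the control with its own vector, as in the study, and sh-Luc against FLAG. Depth was estimated from the spacing of low FPKM multiplied by length, in transcripts of at least 3000 bases, and is an estimate. With 1 sample per group no test was run, and the gene lists are given by counts and medians, with those of all genes as background, and the marker lists also by sums.

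The 5 members and the gene lists were chosen with earlier results of these data known. By rule, all members were described, and from each other list the genes to name were up to 8 with the largest change among those changed at least 2-fold with at least 1 FPKM in any sample, besides Cebpa, Cebpb, Cebpd, Stat3, Socs3, Nfkbia, Nfkbiz, Nr3c1, Adipoq, Fabp4 and Pparg. For marker lists sums stand in place of most of these genes, and Lbp, Cfb, C4b, Csf1r, Mrc1, Sgk1, Tsc22d3, Fkbp5, Klf9, Ppia and Tbp were named outside the rule. The 3 nearest profiles per member were sought among genes that reached 1 FPKM in every sample. Counts over both FLAG-vector and both sh-vector lines were added after the values were seen. Alternatives were a pseudocount of 0.1, none, a filter at 1 FPKM in every sample, quantile normalization, median-of-ratios scaling, a cut-off of 3-fold, the entry with the highest mean and the other control. A further acute phase gene is not reported here. The code for the fold-change calls and for both rescalings was tested on the measured values with known changes put in. The other steps were not tested in this way. Python 3.11.15, numpy 2.4.6, scipy 1.17.1, pandas 2.3.3 and matplotlib 3.10.9 were used.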

Additional observations from a re-analysis of the deposited data

How the results depend on the processing

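The direction of the members depended on the control. With sh-Luc as control, Hp in FLAG-CACUL1 stood at 4.28 on the log2 scale and Lcn2, -0.15 against FLAG, at 7.73. With FLAG as control, sh-CACUL1 gave -5.82 for Hp, -5.19 for Lcn2 and -0.51 for Steap4, each reversed in sign. Saa3, which had been 0.90 and under 2-fold, also changed sign, to -8.03. Serpina3n was level there, at -0.071 (counting interval -0.32 to 0.18). With the other control, members called were 5 higher and 0 lower for FLAG-CACUL1, where 659 of all 13085 genes were higher and 637 lower. For sh-CACUL1 they were 0 higher and 3 lower, where 975 of all genes were higher and 2016 lower. Under the other settings for the fold changes every member kept its sign in all 3 comparisons, with Saa3 in sh-CACUL1 between 0.90 and 1.34 and Lcn2 in FLAG-CACUL1 between -0.29 and -0.05. At a cut-off of 3-fold, 2 members were called in sh-CACUL1 in place of 4. With a pseudocount of 0.1, with none and with both rescalings, 5 were called there. Over all genes, FLAG-CACUL1 had 983 higher and 945 lower, against 1786 and 1375 with a pseudocount of 0.1, 2192 and 1583 with none, 283 and 380 at 3-fold, and 755 and 1169 after median-of-ratios scaling. In sh-CACUL1 647 genes were higher and 2141 lower, against 1085 and 3078 with a pseudocount of 0.1, 1362 and 3437 with none, 975 and 2016 against FLAG, 252 and 684 at 3-fold, 1178 and 1084 after quantile normalization, and 1231 and 975 after median-of-ratios scaling. In sh-Luc against FLAG, 1627 were higher and 1123 lower, against 2568 and 1552 with a pseudocount of 0.1, 2949 and 1762 with none, 457 and 537 at 3-fold, and 1143 and 1345 or 937 and 1565 after these rescalings. No paired analysis was possible because each group has 1 sample, and for the same reason no replicate could be left out. Depth limits Saa3 most, which rests on about 18 fragments in sh-Luc and 28 in sh-CACUL1.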

Other observations

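Genes whose proteins bind or take up the members' proteins, or like Hmox1 act downstream, were measured in part, with 6 of 13 in the table. Their median log2 fold changes were -0.65 (FLAG-CACUL1) and -0.11 (sh-CACUL1), beside 0.09 and -0.30 over all genes. At least 2-fold higher was 1 of the 6 and lower were 2 in either comparison. Of all genes, 7.51% were higher and 7.22% lower in FLAG-CACUL1, and 4.94% were higher and 16.4% lower in sh-CACUL1. Scarb1, a lipoprotein receptor gene, had 125.0 FPKM in FLAG and 11.7 in FLAG-CACUL1, and 18.8 in sh-Luc beside 20.2 in sh-CACUL1. Hmox1, which encodes the haem-degrading enzyme downstream of haemoglobin uptake, had 924, 361, 232 and 187 FPKM. Lrp1, a scavenger receptor gene, was higher in FLAG-CACUL1 (1.19 on the log2 scale) and lower in sh-CACUL1 (-2.57). Mmp9, which encodes a protease that lipocalin 2 can bind, had 23.1 FPKM in sh-Luc and 0.572 to 1.65 in the other lines, so it was highest where Lcn2 was lowest. Slc22a17, a lipocalin 2 receptor gene, had 1.72 FPKM in FLAG and 0.853 in FLAG-CACUL1, and 0.0188 in sh-Luc beside 2.46 in sh-CACUL1.

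Among 10 reference genes often taken as stable, 1 was at least 2-fold lower in FLAG-CACUL1, and 2 were higher and 2 lower in sh-CACUL1, with medians of 0.24 and -0.10. The shares of all genes in those comparisons are given above. In sh-Luc against FLAG, 2 of the 10 were higher and 4 lower (median 0.20), where 12.4% and 8.58% of all genes were. The lower ones were Pgk1 (-2.81), Gapdh (-2.77), Hprt (-1.45) and B2m (-1.02), and the higher ones Actb (1.09) and Ppia (1.03). Gapdh, a glycolytic enzyme gene, had 9160.3 FPKM in FLAG and 1342 to 1851 in the other lines. Tbp, a basal transcription factor gene, lay between 7.12 and 9.28 FPKM in all lines.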
